A study of Mus musculus with 16 samples.

Results

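The genes described here are 36 markers of lymphocytes, measured as read counts in whole fat depots of mice. They comprise 22 genes of T cells and natural killer (NK) cells, 12 genes of B cells and the 2 lymphoid chemokines Cxcl13 and Ccl19. Each gene was taken by its symbol from a list of lymphocyte markers and matched to its Ensembl identifier, and all 36 were found among the 46078 identifiers of the count table. Their summed level was read as a measure of how much lymphoid tissue each library held.

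T cells carry a receptor that signals through the CD3 chains and the kinases Lck and Zap70, while B cells carry a surface antibody that signals through Cd79a and Cd79b. Both kinds of lymphocyte collect in lymph nodes, where stromal cells draw them in with chemokines such as Ccl19 and Cxcl13, and blood lymphocytes enter through high endothelial venules. The inguinal fat pad of the mouse contains a lymph node, so lymphocyte RNA in this depot can come from the node as well as from cells scattered through the fat.

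The study sequenced poly(A)-selected RNA from fat of female wild type C57BL/6 mice aged 16 weeks, with 4 libraries in each of 4 groups. All animals were born and weaned at 30 °C. The BAT_5C group is brown fat, and the WAT_5C group inguinal white fat, of mice that entered a climate chamber when 10 to 12 weeks old; they spent 2 weeks at 18 °C there and a further 3 weeks at 5 °C. The BAT_30C group is brown fat, and the WAT_30C group inguinal white fat, of mice that stayed at 30 °C. All mice went without food for 2 to 3 hours before tissue was taken. The labels do not say whether a pad was dissected free of its lymph node, nor whether libraries of the 2 tissues came from the same animals. The p-values weigh each difference against the spread between these libraries. Tissue and interaction tests treated all libraries as independent, which would not hold if the 2 tissues shared animals. Total counts ran between 54264023 and 71289020 per library.

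Several libraries stood apart or carried conflicting labels. The tissue label of the BAT libraries also contains the word inguinal, and in 4 of the 8 BAT libraries (BAT_5C replicates 1 and 2, BAT_30C replicates 3 and 4) the source name gives the other temperature. Groups were taken from the titles and from the temperature at which the mice were kept. Ucp1, the uncoupling protein of brown fat that cold induces, lay between 12384 and 13783 CPM (read counts scaled to a common library size) in the 4 BAT_5C libraries, against 633 to 2018 CPM in the 4 BAT_30C libraries, and so separated BAT by those labels. In white fat Ucp1 lay between 6.08 and 398 CPM in WAT_5C and between 0.0839 and 0.324 CPM in WAT_30C. The fat hormone gene Adipoq was high in every library, at 557 CPM or more.

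WAT_5C replicate 1 differed from its group in ways the labels do not account for. Xist, the RNA of the inactive X chromosome, had 3 counts there and at least 11136 counts in each of the other 15 libraries. The 4 Y-linked genes Ddx3y, Eif2s3y, Kdm5d and Uty summed to 17183 counts in it and to at most 45 counts elsewhere, although all mice are labelled female. Its mammary epithelium genes summed to 79.8 CPM, against 1784 to 1839 CPM in the other 3 WAT_5C libraries and 1240.06 to 1949 CPM in WAT_30C, and its adipocyte genes summed to 38381 CPM, against 11230.7 to 16335 CPM in the other 3. The counts of genes past the test, and the medians of the 36 genes, are given with and without this library wherever WAT_5C enters a test, and any other WAT_5C value includes it unless the text says otherwise.

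Sequence just upstream of the start site was available from RefSeq (build GRCm38.p6) for 25 of the 36 genes, in 34 windows of 250 bases. The windows were searched on both strands for 7 short motifs known from lymphocyte gene control: GGAAGT (ETS), TGTGGT (RUNX), TCCC, any 2 bases and GGGA (EBF1), ATGCAAAT (octamer), CTTTGAT (TCF/LEF), CAGGTG (E-box) and GGG, any 3 bases and TTCC (NF-kB). The upstream bases of 5 genes are shown as examples. The first 3 are the CD3 chains of the T cell receptor, whose levels fell in cold brown fat. The others are Cd79a and Cd22 of B cells, whose levels did not pass the test there. A link between motifs and levels was not tested. Each sequence is printed 5′ to 3′ on the strand of the gene, ending at the base before the annotated start. Matches to these motifs are in capitals.

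Cd3d (chr9:44981536-44981785, plus strand) holds an ETS, an E-box and a TCF/LEF match.
Cd3d: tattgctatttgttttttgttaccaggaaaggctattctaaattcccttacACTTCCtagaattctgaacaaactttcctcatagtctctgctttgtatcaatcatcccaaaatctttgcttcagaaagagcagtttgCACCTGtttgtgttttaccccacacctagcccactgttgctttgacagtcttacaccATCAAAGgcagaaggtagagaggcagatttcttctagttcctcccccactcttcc
Cd3g (chr9:44980432-44980681, minus strand) lies next to Cd3d on the opposite strand and holds 2 E-box matches.
Cd3g: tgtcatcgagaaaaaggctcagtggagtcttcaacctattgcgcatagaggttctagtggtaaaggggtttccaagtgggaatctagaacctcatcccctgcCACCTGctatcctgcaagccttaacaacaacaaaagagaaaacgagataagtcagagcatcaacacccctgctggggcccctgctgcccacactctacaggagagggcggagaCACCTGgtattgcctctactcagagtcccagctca
Cd3e (chr9:45009612-45009861, minus strand) holds 1 ETS match.
Cd3e: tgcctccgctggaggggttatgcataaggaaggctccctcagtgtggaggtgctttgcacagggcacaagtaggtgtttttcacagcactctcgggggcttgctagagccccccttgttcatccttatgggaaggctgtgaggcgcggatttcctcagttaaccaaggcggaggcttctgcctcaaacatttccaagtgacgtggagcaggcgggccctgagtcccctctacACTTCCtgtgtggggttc
Cd79a (chr7:24897247-24897496, plus strand) holds an E-box, an NF-kB and an ETS match.
Cd79a: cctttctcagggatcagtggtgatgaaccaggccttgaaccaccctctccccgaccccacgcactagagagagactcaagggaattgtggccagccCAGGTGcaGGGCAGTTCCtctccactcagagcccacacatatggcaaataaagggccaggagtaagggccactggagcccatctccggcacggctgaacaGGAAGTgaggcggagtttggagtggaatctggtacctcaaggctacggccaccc
Cd22 (chr7:30879029-30879278, minus strand) holds an E-box and an EBF1 match.
Cd22: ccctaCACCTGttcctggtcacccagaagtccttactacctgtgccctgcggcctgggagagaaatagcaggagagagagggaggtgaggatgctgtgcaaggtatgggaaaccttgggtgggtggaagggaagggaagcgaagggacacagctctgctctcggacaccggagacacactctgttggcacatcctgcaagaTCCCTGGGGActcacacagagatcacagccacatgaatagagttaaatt

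Over the whole group, the ETS letters were in 14 of 34 windows, against 19.74% of all 32851 windows of that length, and the E-box letters in 13 of 34, against 17.22%. RUNX letters were in 8 of the 34, against 14.05% of all windows. EBF1, TCF/LEF and NF-kB letters were each in 1 window, against 0.78%, 3.21% and 4.65% of all windows, and the octamer was in 0 of the 34 and in 1.6% of all windows. These counts describe letters only. Some genes have more than 1 window, and windows of 1 gene can share bases.

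The first comparison asked how much lymphocyte RNA white fat held beside brown fat. All 36 genes were higher in WAT_30C than in BAT_30C by edgeR's quasi-likelihood test (adjusted p below 0.05), where 35.3% of the 19481 genes tested were higher. The median difference of the 36 was 6.49 on the log2 scale, against 0.03 for all genes tested. At 5 °C all 36 were again higher in WAT_5C than in BAT_5C, where 40.5% of all genes were, with a median of 6.69; without WAT_5C replicate 1 the count was 36 of 36, against 42.2% of all genes, and the median 6.99. No library of one tissue overlapped the other for any of the 36 genes at 30 °C (33.9% of all genes lay wholly higher in WAT) or at 5 °C (32.6%).

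The summed level of the 36 genes averaged 3230.45 ± 524 CPM in WAT_30C and 62.4 ± 26.4 CPM in BAT_30C (SD, n = 4 each). In the cold it averaged 2198 ± 889 CPM in WAT_5C and 59.6 ± 11.7 CPM in BAT_5C (SD, n = 4 each), and 2604 ± 443 CPM in WAT_5C without replicate 1 (SD, n = 3). The brown fat sums were mostly Ighm, the IgM heavy chain, which alone averaged 42.5 CPM in BAT_5C and 35 CPM in BAT_30C, with 72.9 CPM in BAT_30C replicate 4. As a share of all counts, the 36 genes took 0.401% to 0.573% of a WAT_30C library and 0.0918% to 0.449% of a WAT_5C library. In brown fat they took 0.00318% to 0.00449% of a BAT_5C library and 0.00364% to 0.00838% of a BAT_30C library. These are bulk samples, so fewer cells of a type and less RNA per cell cannot be told apart.

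**Figure D1:**
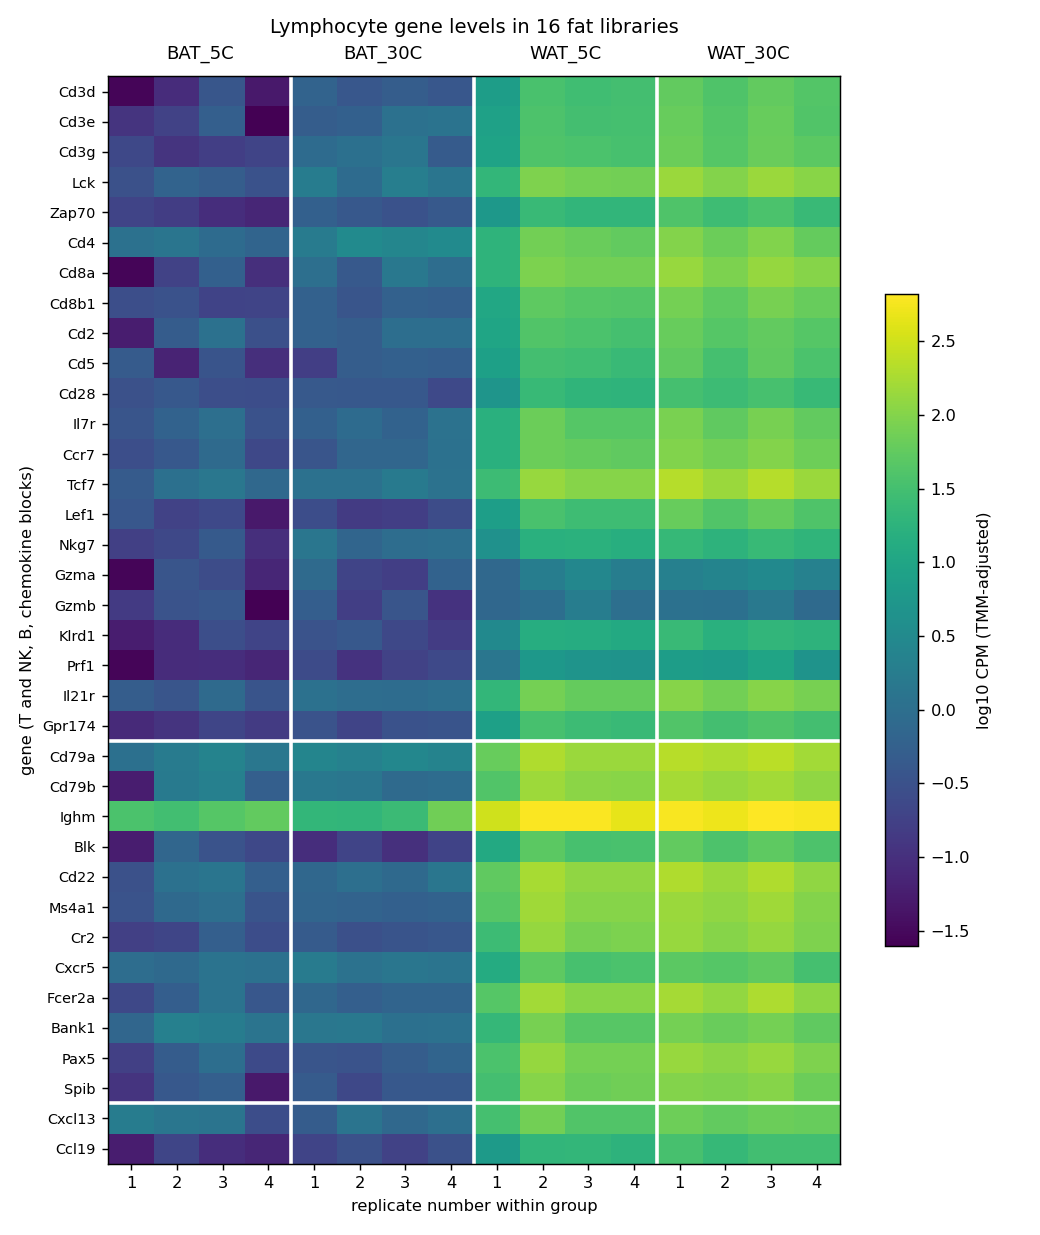
Level of each of the 36 genes (vertical axis) in each of the 16 libraries (horizontal axis, replicate number within group), as log10 CPM in colour; white lines separate the groups and the T and NK, B and chemokine genes. The 8 WAT columns are brighter than the 8 BAT columns for all 36 genes, WAT_5C replicate 1 is the dimmest WAT column, and Gzma and Gzmb show the least contrast between the tissues.

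At 30 °C the widest tissue gaps of the 36 genes were those of the B cell genes Cr2 and Blk. At 5 °C the T cell gene Cd8a (log2 difference 8.13, and 8.45 without WAT_5C replicate 1) and Cr2 (8.11 and 8.42) had the widest. Cr2, a complement receptor of B cells and follicular dendritic cells, had 140, 103, 134 and 93.8 CPM in WAT_30C, against 0.461, 0.296, 0.344 and 0.391 CPM in BAT_30C, a log2 difference of 8.29 ± 0.50 (SE; edgeR adjusted p = 8.37e-09). Pax5, the transcription factor that fixes B cell identity, had 138, 112, 138 and 92.3 CPM in WAT_30C, against 0.369, 0.333, 0.506 and 0.652 CPM in BAT_30C. Its log2 difference was 8.02 ± 0.49 (SE; edgeR adjusted p = 9.76e-09). Blk, a B cell receptor kinase, stood at 8.29, Spib, an ETS transcription factor, at 7.93 and Ms4a1, a surface protein of mature B cells, at 7.66 on the same scale.

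Among T cell genes the naive cell transcription factor Lef1 had a log2 difference of 7.89, its relative Tcf7 7.16 and Cd8b1, a chain of the CD8 co-receptor, 7.03. Ccr7, the receptor that guides lymphocytes into nodes, had 95.4, 75.7, 98.7 and 69.6 CPM in WAT_30C, against 0.369, 0.721, 0.729 and 1.11 CPM in BAT_30C, a log2 difference of 6.87 ± 0.49 (SE; edgeR adjusted p = 3.17e-08). Il7r, the survival receptor of resting T cells, had 85.6, 55.6, 82.2 and 57.1 CPM in WAT_30C, against 0.553, 0.869, 0.607 and 1.17 CPM in BAT_30C, a log2 difference of 6.46 ± 0.47 (SE; edgeR adjusted p = 3.27e-08).

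The chemokines followed the lymphocytes. Cxcl13, made by follicle stroma, had 69.2, 56.6, 68.3 and 62.9 CPM in WAT_30C, against 0.479, 1.24, 0.789 and 1.02 CPM in BAT_30C (log2 difference 6.19). For Ccl19, made by stroma of the T cell zone, 33.9, 23.2, 29.8 and 29.8 CPM in WAT_30C stood against 0.203, 0.314, 0.182 and 0.304 CPM in BAT_30C (log2 difference 6.85). Ccl19 is uncertain as a gene, since 52.0% of its 50-base transcript windows are also found in Ccl19-ps1, Ccl19-ps3, Gm12407 or Gm2564, and the counting could have split its reads among them. For Lef1 the shared part was 13.7%, for Cd79a 8.31% and for the other 33 genes at most 7.84%.

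The genes with the narrowest tissue gaps were the granule genes of cytotoxic cells and the antibody heavy chain. Gzmb, a granule protease, had 1.1, 1.06, 1.5 and 0.835 CPM in WAT_30C, against 0.516, 0.166, 0.364 and 0.109 CPM in BAT_30C, a log2 difference of 1.94 ± 0.56 (SE; edgeR adjusted p = 0.0061). Gzma, a second granule protease, had 2.07, 2.44, 3.12 and 2.15 CPM in WAT_30C, against 0.83, 0.203, 0.162 and 0.609 CPM in BAT_30C, a log2 difference of 2.43 ± 0.59 (SE; edgeR adjusted p = 0.00176). Ighm, the IgM heavy chain of B cells and of IgM plasma cells, had 593, 518, 662 and 591 CPM in WAT_30C, against 21.2, 19.9, 26.0 and 72.9 CPM in BAT_30C (log2 difference 4.08 ± 0.41, SE). At 5 °C the same 3 genes had log2 differences of 2.32, 3.29 and 3.56, the 3 smallest of the 36, and 2.50, 3.55 and 3.74 without WAT_5C replicate 1.

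Of all 19481 genes tested, 35.3% were higher and 6712 lower in WAT_30C than in BAT_30C. In WAT_5C against BAT_5C 40.5% were higher and 6201 lower, and 42.2% were higher without WAT_5C replicate 1. Genes of lymph node stroma and of high endothelial venules, which are no members of the list, moved with this contrast. Of 20 such genes 19 were found; 17 were higher and 1 lower in WAT_30C than in BAT_30C, and 18 were higher and 1 lower in WAT_5C than in BAT_5C. Glycam1, the venule ligand of L-selectin, had 478 to 648 CPM in WAT_30C and at most 0.0217 CPM in BAT_30C. In the cold Glycam1 had 11.4 CPM in WAT_5C replicate 1 and 447 to 575 CPM in the other 3 WAT_5C libraries, against at most 0.0494 CPM in BAT_5C. Chst4, a sulfotransferase of the same venules, was at 0 in all 8 BAT libraries and at 0.608 to 5.69 CPM in WAT. Other T and NK cell genes gave 34 of 37 higher in WAT_30C than in BAT_30C and 35 of 37 higher in WAT_5C than in BAT_5C, and other B and plasma cell genes gave 28 of 30 in each contrast. Dendritic cell genes gave 11 of 13 higher and 1 lower in each, and macrophage genes 13 of 14 higher in WAT_30C and 14 of 14 in WAT_5C. Blood genes gave 1 of 7 higher and 6 lower in WAT_30C, and 1 higher and 5 lower in WAT_5C. Mammary epithelium genes gave 13 of 14 higher and 1 lower in WAT_30C, with a median log2 difference of 7.47, wider than the 6.49 of the 36 lymphocyte genes, and 14 of 14 higher in WAT_5C. Lymphatic endothelium genes gave 7 of 12 higher and 2 lower in WAT_30C, and 8 higher and 2 lower in WAT_5C. Adipocyte genes gave 0 of 10 higher and 7 lower in WAT_30C, and 2 higher and 4 lower in WAT_5C, and skeletal muscle genes 0 of 13 higher and 1 lower in WAT_30C, and 0 higher and 2 lower in WAT_5C. Without replicate 1 the WAT_5C counts became 36 of 37 for other T and NK genes, 29 of 30 for other B and plasma cell genes, 12 higher and 1 lower for dendritic cell genes, 8 higher and 3 lower for lymphatic endothelium, 1 higher and 7 lower for adipocyte genes, and 0 higher and 3 lower for skeletal muscle genes; the other 4 lists kept the same counts. The part of each of these in the lymphocyte difference was not tested.

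The next comparison was cold against warmth within white fat. With all 8 libraries, 35 of the 36 genes had a negative log2 difference between WAT_5C and WAT_30C, and none passed edgeR's test at an adjusted p of 0.05; over the 18975 genes tested, 0.0% passed as lower and 0.0632% as higher. At an unadjusted p below 0.05 edgeR gave 4 genes (Cd3g, Cd5, Lef1 and Ccl19), where 1286 of all 18975 genes were lower. At an adjusted p of 0.05 DESeq2 gave 0 genes and limma-voom with quality weights gave 14, where 276 and 879 of all genes were lower. At an unadjusted p below 0.05 they gave 16 and 29, where 1689 and 3112 of all genes were lower. The median log2 difference was -0.73, against -0.01 for all genes, with -0.86 for the 22 T and NK genes and -0.52 for the 12 B cell genes.

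Without WAT_5C replicate 1 the median was -0.45, against -0.02 for all genes, with -0.56 for T and NK genes and -0.26 for B cell genes. None of the 36 passed edgeR's test, where 0.274% of 19320 genes passed as lower and 1.84% as higher; the adjusted p lay between 0.057 and 0.809. At an unadjusted p below 0.05 edgeR gave 18 genes, of which 17 were T and NK genes and the other was Ccl19. Of all 19320 genes, 2132 were lower in this way. At an adjusted p of 0.05 DESeq2 and limma-voom each gave 17 genes, and each list of 17 held 16 T and NK genes and Ccl19. Of all genes, 973 and 721 were lower by that threshold. At an unadjusted p below 0.05 they gave 20 and 31 genes, where 2249 and 2915 of all genes were lower.

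In 15 of the 36 genes every WAT_5C library lay below every WAT_30C library, both with replicate 1 (5.42% of all genes) and without it (7.05%). These were Cd3d, Cd3e, Cd3g, Lck, Zap70, Cd8a, Cd2, Cd5, Cd28, Ccr7, Tcf7, Lef1, Nkg7, Klrd1 and Ccl19, and no B cell gene was among them. Cd3g had 8.99, 40.6, 37.3 and 34.2 CPM in WAT_5C, against 66.2, 45.6, 63.6 and 51.4 CPM in WAT_30C. Its log2 difference was -0.93 ± 0.41 (SE; edgeR adjusted p = 0.276), and -0.63 ± 0.14 without replicate 1 (SE; edgeR adjusted p = 0.0587). Cd3e had 8.42, 38.9, 31.9 and 32.9 CPM in WAT_5C, against 60.7, 42.6, 62.0 and 42.0 CPM in WAT_30C, with -0.62 ± 0.17 without replicate 1 (SE; edgeR adjusted p = 0.0891). The 2 groups come close in both genes: the highest WAT_5C library, replicate 2, lies just under the lowest WAT_30C library.

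Lck, the kinase that starts T cell receptor signalling, had 21.3, 92.2, 79.0 and 76.4 CPM in WAT_5C, against 142, 101, 143 and 107 CPM in WAT_30C. Cd8a, the co-receptor chain of cytotoxic T cells, had 18.5, 87.1, 74.1 and 75.6 CPM in WAT_5C, against 136, 90.3, 131 and 105 CPM in WAT_30C. Cd4, the co-receptor of helper T cells, had 18.6, 76.9, 65.4 and 57.8 CPM in WAT_5C, against 99.0, 67.0, 96.1 and 59.9 CPM in WAT_30C, so its groups overlapped. Without replicate 1 the log2 differences were -0.61 ± 0.15 for Lck (SE), -0.58 ± 0.15 for Cd8a (SE) and -0.30 ± 0.20 for Cd4 (SE), with edgeR adjusted p of 0.0731, 0.0826 and 0.386.

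Among homing and survival genes, Ccr7 had 15.9, 67.0, 59.0 and 55.3 CPM in WAT_5C, a log2 difference of -0.52 ± 0.14 without replicate 1 (SE; edgeR adjusted p = 0.0888). Il7r had 15.7, 66.4, 44.7 and 44.8 CPM in WAT_5C, a log2 difference of -0.46 ± 0.21 without replicate 1 (SE; edgeR adjusted p = 0.229), and overlapped WAT_30C. Lef1 had the lowest value of the 36 in both fits, -1.06 ± 0.42 with replicate 1 (SE; edgeR adjusted p = 0.259) and -0.76 ± 0.19 without it (SE; edgeR adjusted p = 0.0772). Nkg7, a granule protein of cytotoxic and NK cells, had 4.34, 16.1, 16.9 and 14.5 CPM in WAT_5C, against 23.1, 18.1, 23.7 and 19.3 CPM in WAT_30C. Gzmb went against the others, with 0.736, 0.991, 1.86 and 1.01 CPM in WAT_5C against 1.1, 1.06, 1.5 and 0.835 CPM in WAT_30C, a log2 difference of 0.01 ± 0.32 (SE; edgeR adjusted p = 0.991), and 0.16 ± 0.29 without replicate 1 (SE; edgeR adjusted p = 0.775). Gzma had 0.784, 1.88, 2.77 and 1.88 CPM in WAT_5C and overlapped WAT_30C.

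B cell genes overlapped between the temperatures throughout. Cd79a, a signalling chain of the B cell receptor, had 61.2, 198, 143 and 143 CPM in WAT_5C, against 223, 186, 229 and 162 CPM in WAT_30C. Its log2 difference was -0.58 ± 0.32 (SE; edgeR adjusted p = 0.338), and -0.34 ± 0.17 without replicate 1 (SE; edgeR adjusted p = 0.26). Cd79b, its partner chain, had 42.0, 152, 112 and 109 CPM in WAT_5C, against 166, 138, 162 and 124 CPM in WAT_30C. In Ms4a1 the WAT_5C values were 46.3, 158, 105 and 106 CPM, against 141, 120, 153 and 99.7 CPM in WAT_30C, and the log2 difference without replicate 1 was -0.09 ± 0.19 (SE; edgeR adjusted p = 0.809). Replicate 2 was the highest WAT_5C library in all 3 of these genes. Cr2 had 26.5, 134, 82.5 and 90.4 CPM and Pax5 36.8, 130, 78.6 and 79.6 CPM in WAT_5C, and both overlapped WAT_30C. Ighm had 322, 613, 628 and 447 CPM in WAT_5C, with a log2 difference of -0.26 ± 0.23 (SE; edgeR adjusted p = 0.523), and -0.10 ± 0.15 without replicate 1 (SE; edgeR adjusted p = 0.707).

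Both chemokines had negative differences. Ccl19 had 6.35, 20.6, 20.8 and 18.0 CPM in WAT_5C, all below WAT_30C, with a log2 difference of -0.86 ± 0.34 (SE; edgeR adjusted p = 0.256), and -0.59 ± 0.13 without replicate 1 (SE; edgeR adjusted p = 0.057). Cxcl13 had 32.7, 74.5, 41.3 and 42.1 CPM in WAT_5C, where replicate 2 lay above all 4 WAT_30C libraries and the other 3 below all of them, and its log2 difference was -0.46 ± 0.24 (SE; edgeR adjusted p = 0.328), and -0.32 ± 0.21 without replicate 1 (SE; edgeR adjusted p = 0.395). WAT_5C replicate 2 also decided the call with replicate 1 kept. Without replicate 2 alone, Cxcl13 stood at -0.76 and passed the test (edgeR adjusted p = 0.0395), where 8 of all 19312 genes were lower. That fit includes replicate 1, the lowest WAT_5C library for Cxcl13.

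**Figure D2:**
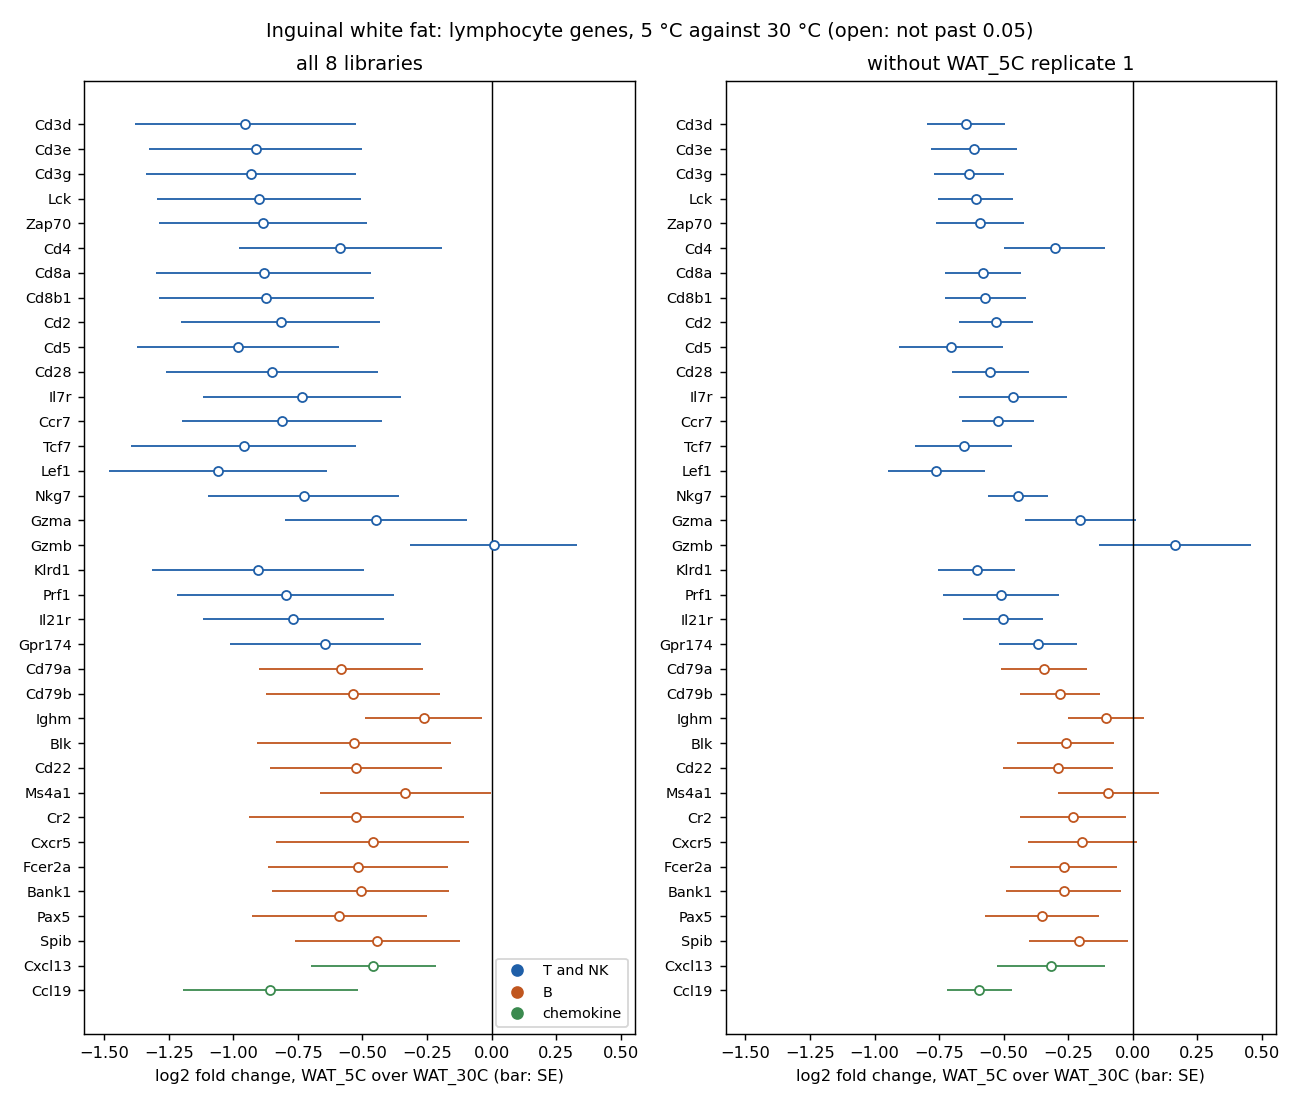
Log2 fold change of each of the 36 genes between WAT_5C and WAT_30C with its SE (bars), for all 8 libraries (left) and without WAT_5C replicate 1 (right); open circles did not pass an adjusted p of 0.05. In both panels 35 of 36 circles lie left of 0, the bars are shorter on the right, and the T and NK genes lie further left than most B cell genes.

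WAT_5C replicate 1 held less lymphocyte RNA than the rest of its group in every one of the 36 genes. The share of all genes that lay lower there was not counted. It also differed from its group over all genes: pairwise chi-square per degree of freedom was 463 to 785 against the other 3 WAT_5C libraries. Among those 3 it was 31.5 to 107. The level of the 36 genes in replicate 1, relative to the mean of the other 3, had a median of 0.288, between 0.222 for Cd3d and 0.621 for Cxcl13. The median ratio was 0.261 for T and NK genes and 0.378 for B cell genes; Gzmb at 0.571 and Ighm at 0.573 were the highest of their kind. The T and NK genes summed to 228 CPM in this library, against 802 to 1002 CPM in the other 3, and the B cell genes without Ighm to 391 CPM, against 935 to 1393 CPM. The stroma and venule list was also lower as a sum, at 669 CPM in this library and 1185 to 1463 CPM in the other 3. Much of that gap lay in Glycam1, whose values are given above. Ccl21a, a T zone chemokine of that list, had 28.6 CPM, against 96.6 to 124 CPM. Dendritic cell genes summed to 154 CPM, against 272 to 308 CPM. Lymphatic endothelium genes went the other way, at 168 CPM against 133 to 148 CPM, and so did blood genes, at 277 CPM against 65.7 to 104 CPM. Macrophage genes summed to 1042 CPM there, against 1633 to 2205 CPM, and skeletal muscle genes to 7485 CPM, against 22.9 to 273.9 CPM.

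**Figure D3:**
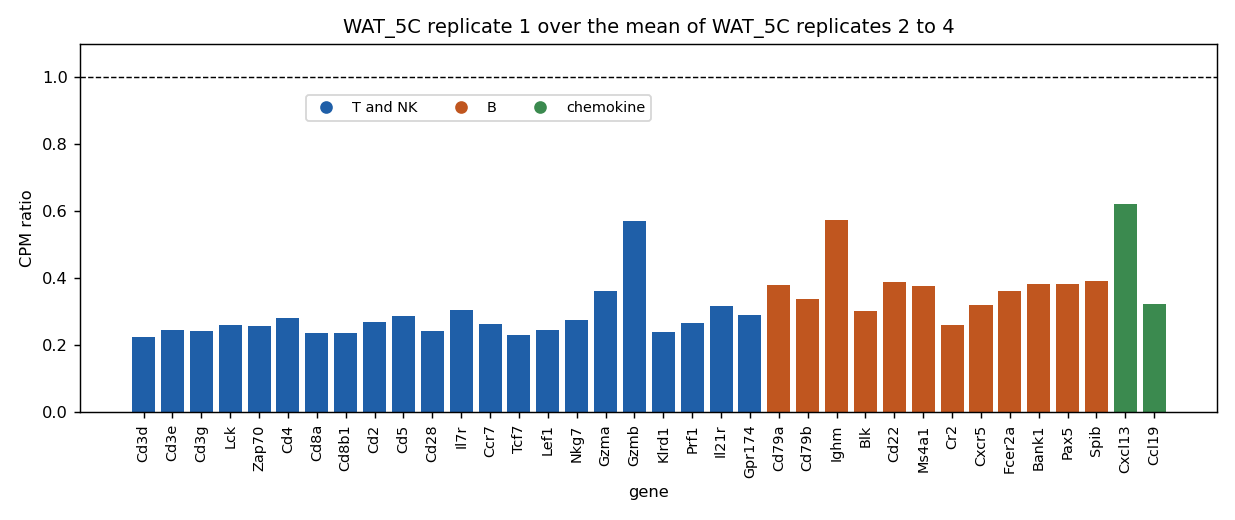
CPM of each of the 36 genes in WAT_5C replicate 1 divided by the mean CPM of WAT_5C replicates 2 to 4 (bars, linear axis from 0; dashed line at equality). All bars lie at 0.621 or below, and most T and NK bars are lower than most B cell bars.

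Counts for other gene lists in white fat are read against all genes tested. With all 8 libraries 0.0% of these passed as lower and 0.0632% as higher, and without replicate 1 0.274% and 1.84%. At an unadjusted p below 0.05, 1286 of 18975 were lower and 2144 higher with all libraries. Without replicate 1 these were 2132 and 2351 of 19320. Of other T and NK cell genes 0 of 37 passed edgeR's test with all 8 libraries (15 at an unadjusted p below 0.05), and 4 of 37 fell without replicate 1. Those 4 were Trbc2, a T cell receptor constant region, at -0.76 (edgeR adjusted p = 0.0234), the chemokine Ccl5 at -0.60 (adjusted p = 0.0306), the adaptor Lat at -0.72 (adjusted p = 0.038) and the adaptor Sh2d1a at -0.68 (adjusted p = 0.0482). Other B and plasma cell genes gave 0 of 30 in both fits, with 2 at an unadjusted p below 0.05 with all libraries and 6 without replicate 1. Stroma and venule genes, lymphatic endothelium genes, dendritic cell genes and macrophage genes gave none past the threshold in either fit, with at most 3 of each list at an unadjusted p below 0.05. Mammary epithelium genes gave 0 of 14 with all libraries, and without replicate 1 Cldn3 was higher and Ltf lower. Skeletal muscle genes differed widely between libraries, at 22.9 to 7485 CPM in WAT_5C and 139.9 to 10988.5 CPM in WAT_30C. None of the 12 tested passed edgeR's test with all libraries, where the median log2 difference was -1.13 and 0 had an unadjusted p below 0.05. Without replicate 1 again none passed, with a median of -5.07, 11 of 12 at an unadjusted p below 0.05 and a smallest adjusted p of 0.0911; the sums were then 22.9 to 273.9 CPM in WAT_5C. Adipocyte genes gave 0 of 10 in both fits, with medians of 0.77 and, without replicate 1, 0.18, and 4 at an unadjusted p below 0.05 in each. Blood genes gave 0 of 7 in both, with medians of 0.83 and 0.16, and 1 and 0 at an unadjusted p below 0.05. The part of each list in the lymphocyte values of white fat was not tested.

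In brown fat the comparison of cold with warmth gave 11 genes that fell in BAT_5C and none that rose, all 11 of them T and NK genes. Over the 16213 genes tested in brown fat, 30.3% were lower and 29.2% higher in BAT_5C, so the overall count of 11 among 33 genes tested is near that background. The 3 CD3 chains, Lck, Zap70, Cd4, Cd8a, Cd8b1, Nkg7, Il21r and Gpr174 made up the 11. All 20 T and NK genes tested had negative log2 differences, with a median of -1.08, and the 12 B cell genes had a median of -0.11, against -0.05 for all genes. The difference between the T and B cell genes was not tested itself.

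These levels rest on few reads. Lef1, Prf1 and Ccl19 were too low to be tested, with 1 to 17 counts per library. Of the 33 genes tested, 13 had at least 10 counts in all 8 BAT libraries, while 15 reached 10 counts in all 4 BAT_30C libraries but not in all 4 BAT_5C libraries. The 11 genes that fell comprise 8 of those 15 (Cd3d, Cd3e, Cd3g, Zap70, Cd8a, Cd8b1, Nkg7 and Gpr174) and 3 of the 13 (Lck, Cd4 and Il21r), so the count and the medians over the genes tested are given as descriptions only. In 8 of the 33 genes tested every BAT_5C library lay below every BAT_30C library, a share just under the 27.6% of all genes tested. These were Cd3d, Cd3g, Lck, Zap70, Cd4, Cd8b1, Nkg7 and Il21r; Prf1, not tested, lay in the same way. No gene of the 36 lay wholly higher in BAT_5C.

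Of the receptor and its kinases, Cd3g had 0.226, 0.114, 0.165 and 0.198 CPM in BAT_5C, against 0.885, 1.05, 1.34 and 0.456 CPM in BAT_30C, and fell by 2.40 ± 0.39 on the log2 scale (SE; edgeR adjusted p = 0.000547). Lck had 0.311, 0.639, 0.495 and 0.321 CPM in BAT_5C, against 1.77, 0.869, 1.94 and 1.30 CPM in BAT_30C, and fell by 1.72 ± 0.34 (SE; edgeR adjusted p = 0.00172). Cd3e had 0.113, 0.183, 0.542 and 0.0247 CPM in BAT_5C, against 0.498, 0.554, 1.09 and 1.22 CPM in BAT_30C, and fell by 1.93 ± 0.65 (SE; edgeR adjusted p = 0.0267). Replicate 3 was the highest BAT_5C library for Cd3e and lay inside the BAT_30C range. Zap70, the kinase that docks on the CD3 chains, fell by 1.70 ± 0.37 (SE; edgeR adjusted p = 0.00318) and Cd3d by 1.76 ± 0.61 (SE; edgeR adjusted p = 0.03).

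Among co-receptors, Cd4 had 1.1, 1.32, 0.871 and 0.667 CPM in BAT_5C, against 1.73, 3.23, 2.71 and 3.26 CPM in BAT_30C, and fell by 1.46 ± 0.28 (SE; edgeR adjusted p = 0.0014). Cd8a had 0.0283, 0.183, 0.565 and 0.0988 CPM in BAT_5C, against 1.01, 0.425, 1.48 and 0.935 CPM in BAT_30C, and fell by 2.10 ± 0.66 (SE; edgeR adjusted p = 0.0199). Cd8b1 fell by 1.07 ± 0.30 (SE; edgeR adjusted p = 0.0124). The adhesion receptor Cd2, the inhibitory receptor Cd5 and the costimulatory receptor Cd28 did not pass, at -0.63, -0.86 and -0.21.

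None of the 3 homing and survival genes tested passed. Ccr7 had 0.283, 0.411, 0.848 and 0.222 CPM in BAT_5C, a log2 difference of -0.72 (edgeR adjusted p = 0.208), and Il7r had 0.368, 0.616, 1.04 and 0.321 CPM, a log2 difference of -0.44 (edgeR adjusted p = 0.373). BAT_5C replicate 3, the highest of the group in both, decided the call of Ccr7, which without it stood at -1.23 (edgeR adjusted p = 0.0377). In that fit 4501 of all 16545 genes were lower. Tcf7 stood at -0.43 (edgeR adjusted p = 0.28).

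Of the cytotoxic genes, Nkg7 had 0.170, 0.228, 0.447 and 0.0988 CPM in BAT_5C, against 1.35, 0.684, 0.931 and 1.02 CPM in BAT_30C, and fell by 2.06 ± 0.42 (SE; edgeR adjusted p = 0.00212). Gzma had 0.0283, 0.365, 0.259 and 0.0741 CPM in BAT_5C, a log2 difference of -1.27 (edgeR adjusted p = 0.155). Gzmb had 0.141, 0.342, 0.400 and 0.0247 CPM in BAT_5C, a log2 difference of -0.34 (edgeR adjusted p = 0.69). Both granzymes overlapped BAT_30C, and so did Klrd1, a lectin receptor of NK cells (-0.81, edgeR adjusted p = 0.197). Prf1, the pore-forming protein of the same granules, had 1, 4, 4 and 3 counts in BAT_5C and 14, 6, 9 and 11 counts in BAT_30C. The cytokine receptor Il21r fell by 0.95 ± 0.30 (SE; edgeR adjusted p = 0.0205), and Gpr174, a lipid receptor of lymphocytes, by 1.08 ± 0.37 (SE; edgeR adjusted p = 0.0295).

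None of the 12 B cell genes passed edgeR's test in brown fat, with 1 (Cd79a) at an unadjusted p below 0.05; at an adjusted p of 0.05 DESeq2 gave 1, again Cd79a, and limma-voom gave 0. Cd79a had 1.07, 1.69, 2.38 and 1.43 CPM in BAT_5C, against 2.53, 2.18, 2.73 and 2.33 CPM in BAT_30C, a log2 difference of -0.57 ± 0.24 (SE; edgeR adjusted p = 0.0629). Without BAT_5C replicate 3 it stood at -0.79 and passed (edgeR adjusted p = 0.0133), where 4501 of all 16545 genes were lower. Cd79b had 0.0566, 1.62, 2.10 and 0.544 CPM in BAT_5C, against 1.49, 1.37, 0.830 and 0.891 CPM in BAT_30C, a spread within BAT_5C that covered the whole of BAT_30C. Ms4a1 had 0.339, 0.799, 1.04 and 0.346 CPM in BAT_5C, against 0.701, 0.647, 0.567 and 0.609 CPM in BAT_30C, a log2 difference of 0.00 ± 0.36 (SE; edgeR adjusted p = 0.996).

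Pax5 had 0.170, 0.479, 0.966 and 0.247 CPM in BAT_5C, against 0.369, 0.333, 0.506 and 0.652 CPM in BAT_30C, and Cr2 had 0.170, 0.205, 0.542 and 0.272 CPM, against 0.461, 0.296, 0.344 and 0.391 CPM. Both overlapped, at 0.02 and -0.32 on the log2 scale. Blk had the highest value of the 36 genes, with 0.0566, 0.707, 0.330 and 0.222 CPM in BAT_5C and 0.0922, 0.203, 0.101 and 0.196 CPM in BAT_30C, a log2 difference of 1.16 ± 0.62 (SE; edgeR adjusted p = 0.134). Leaving out BAT_5C replicate 1, its lowest library in that group, took Blk to 1.49 (edgeR adjusted p = 0.0335), where 4561 of all 16613 genes were higher. Bank1, a B cell adaptor, had 0.707, 2.08, 1.77 and 1.24 CPM in BAT_5C, against 1.42, 1.48, 1.05 and 1.11 CPM in BAT_30C, a log2 difference of 0.19 ± 0.31 (SE; edgeR adjusted p = 0.615). The chemokine Cxcl13 had 1.75, 1.35, 1.22 and 0.272 CPM in BAT_5C, against 0.479, 1.24, 0.789 and 1.02 CPM in BAT_30C, a log2 difference of 0.38 (edgeR adjusted p = 0.531).

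Ighm had 37.2, 30.4, 44.2 and 58.2 CPM in BAT_5C, against 21.2, 19.9, 26.0 and 72.9 CPM in BAT_30C, a log2 difference of 0.28 ± 0.41 (SE; edgeR adjusted p = 0.572). The other 3 BAT_30C libraries lay below all of BAT_5C, and replicate 4 lay above all of it. Without BAT_30C replicate 4, Ighm was higher in BAT_5C by 0.95 on the log2 scale (edgeR adjusted p = 0.00458), where 4672 of all 16434 genes were higher. That library was singled out by its Ighm level, so this p-value is no support for a rise and shows only how far 1 library decides the result.

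**Figure D4:**
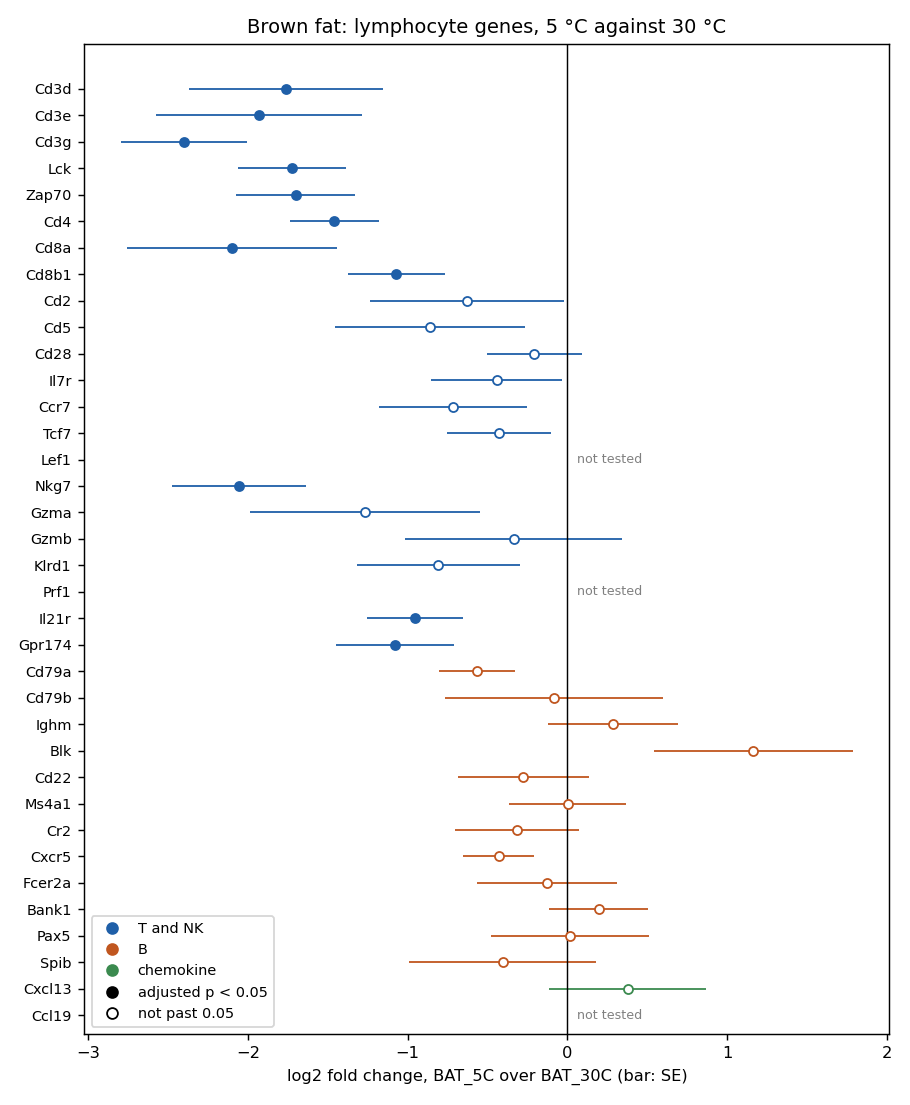
Log2 fold change of each gene between BAT_5C and BAT_30C with its SE (bars); filled circles passed an adjusted p of 0.05, open circles did not, and 3 genes were not tested. The 11 filled circles are all T and NK genes left of 0, while the B cell circles are open and lie on both sides of 0.

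Leaving out single BAT libraries changed the number of calls between 7 and 13, where between 4233 and 4668 of all genes tested were lower. The number of calls was 7 without BAT_30C replicate 3, without BAT_5C replicate 2 and without BAT_5C replicate 4. Cd3g, Lck, Zap70, Cd4, Cd8b1 and Nkg7 passed in all 8 such fits, Cd8a in 5, Cd3e and Il21r in 4, Cd3d in 3 and Gpr174 in 2. The highest adjusted p in those fits was 0.0788 for Cd3d, 0.0747 for Cd3e, 0.061 for Cd8a, 0.058 for Il21r and 0.077 for Gpr174. With the 4 BAT libraries whose labels all matched, 3 of the 34 genes tested fell, where 2707 of all 16535 genes did. With the groups of the source name 0 fell. There 0 of all 16213 genes passed in either direction, so that 0 is no result about these genes.

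Counts for other gene lists in cold brown fat are read against the 30.3% of all genes tested that fell there. Of 37 other T and NK cell genes 22 were tested, 12 fell and 1 rose, with Tbx21, the transcription factor of type 1 T and NK cells, at -2.47 (edgeR adjusted p = 8.95e-05) and Cd247, the zeta chain of the T cell receptor, at -2.57 (edgeR adjusted p = 0.000173). Of 24 other B and plasma cell genes tested 5 fell and none rose, with Xbp1, a factor of secretory cells, at -0.79 (edgeR adjusted p = 0.000776). Dendritic cell genes fell in 9 of 11 tested, with the growth factor receptor Flt3 at -3.03 (edgeR adjusted p = 3.7e-05), and macrophage genes in 2 of 13. Stroma and venule genes fell in 6 of 12 and rose in 1, lymphatic endothelium genes fell in 1 of 10 and rose in 1, mammary epithelium genes fell in 1 of 9 (Esr1), and adipocyte genes rose in 5 of 10 and fell in 3. Skeletal muscle genes gave 0 of 13 and blood genes 0 of 7 past the threshold, with none at an unadjusted p below 0.05 either. The shares of other T and NK cell, dendritic cell and stroma and venule genes that fell lay above that background. Those of other B and plasma cell and macrophage genes lay below it. Of the genes found, 22 of 37, 11 of 13 and 12 of 19 in the first 3 lists were tested. Genes low in BAT_5C could pass the count filter through BAT_30C alone, and the lists were chosen with earlier results known. These shares are therefore given as descriptions only. The part of each list in the lymphocyte result was not tested.

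The sums by library set the 2 lymphocyte classes side by side. T and NK genes summed to 7.29 ± 2.86 CPM in BAT_5C and 16.4 ± 1.74 CPM in BAT_30C (SD, n = 4 each), and the highest BAT_5C library, at 11.1 CPM, lay below the lowest BAT_30C library, at 14.2 CPM. B cell genes without Ighm summed to 8.59 ± 4.09 CPM in BAT_5C and 9.85 ± 0.64 CPM in BAT_30C (SD, n = 4 each), and the groups overlapped. In white fat T and NK genes summed to 715 ± 337 CPM in WAT_5C and 1265 ± 248 CPM in WAT_30C (SD, n = 4 each), or 877 ± 109 CPM in WAT_5C without replicate 1 (SD, n = 3). B cell genes without Ighm summed to 917 ± 410 CPM in WAT_5C and 1281 ± 235 CPM in WAT_30C (SD, n = 4 each), or 1092 ± 261 CPM in WAT_5C without replicate 1 (SD, n = 3).

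Dividing the B cell sum by the T and NK sum sets the 2 classes against each other within a library. The ratio was 0.744, 1.33, 1.21 and 1.39 in BAT_5C, against 0.679, 0.664, 0.515 and 0.563 in BAT_30C. There was no overlap, but the lowest BAT_5C and the highest BAT_30C library came close. Single genes often separated these groups: of 16213 tested, 27.6% lay wholly lower and 27.6% wholly higher in BAT_5C. How often sums or ratios of other genes separate them was not counted, and the brown fat sums rest on few reads. In white fat it was 1.72, 1.39, 1.13 and 1.18 in WAT_5C, against 0.980, 1.13, 1.02 and 0.940 in WAT_30C, where the lowest WAT_5C and the highest WAT_30C library met. Replicate 1 had the highest ratio in WAT_5C. These ratios depend on the length of each gene's transcript, so only their change between libraries is read, and they are given without a test.

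**Figure D5:**
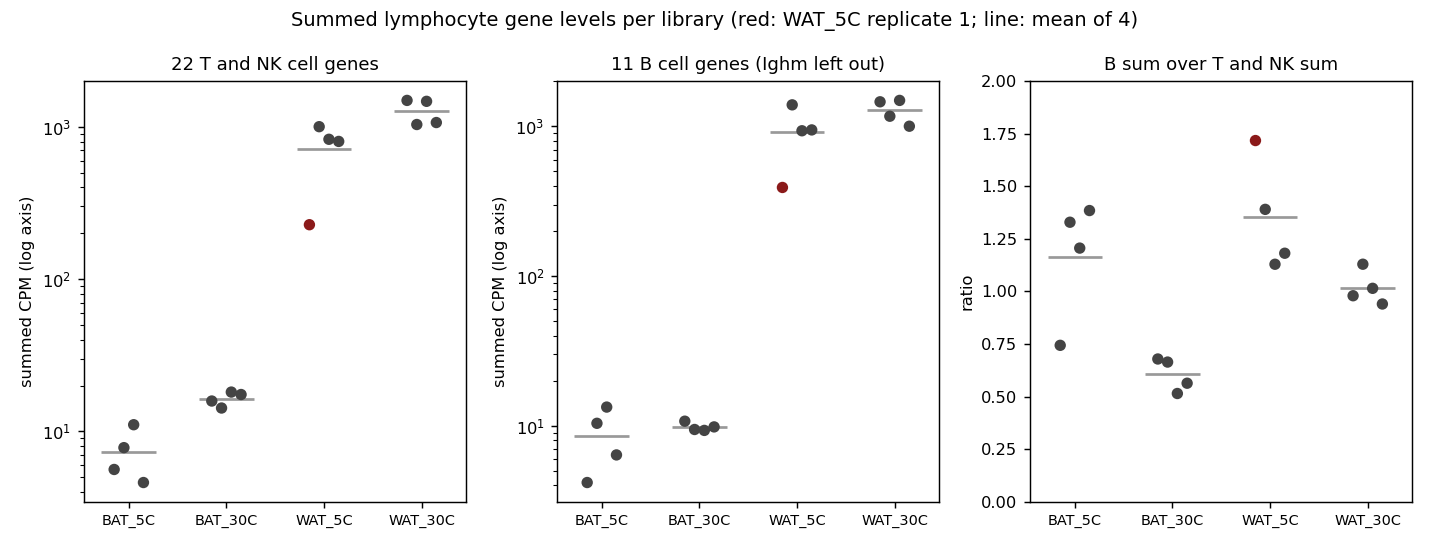
Summed CPM of the 22 T and NK genes (left, log axis), of 11 B cell genes without Ighm (middle, log axis) and their ratio (right, linear axis from 0), 1 point per library, line at the mean of 4, WAT_5C replicate 1 in red. BAT_5C lies wholly below BAT_30C on the left but not in the middle, and its ratios lie wholly above those of BAT_30C on the right. Of all single genes tested in brown fat, 27.6% lay wholly lower and 27.6% wholly higher in BAT_5C.

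Single pairs of genes were also set against each other, as descriptions without a test. How often pairs of genes separate the groups was not counted. Cd4 over Cd3e was 1.76 to 2.21 in WAT_5C, against 1.43 to 1.63 in WAT_30C, with no overlap, whereas Cd8a over Cd3e was 2.20 to 2.32 in WAT_5C, against 2.12 to 2.50 in WAT_30C, with full overlap. Ighm over Cd79a was 34.6, 18.0, 18.6 and 40.6 in BAT_5C, against 8.41, 9.13, 9.51 and 31.3 in BAT_30C, and overlapped through BAT_30C replicate 4. In white fat Ighm over Cd79a was 5.27, 3.10, 4.39 and 3.12 in WAT_5C, against 2.66, 2.78, 2.89 and 3.64 in WAT_30C. Brown fat of either temperature thus had more Ighm per Cd79a than any white fat library. In brown fat Cd3e had as few as 1 count in a library, so ratios over it are not read there.

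Whether cold acted differently in the 2 tissues was tested as the difference of the temperature effects, WAT minus BAT. None of the 36 genes passed edgeR's test, against 20.8% of the 19481 genes tested in either direction. At an adjusted p of 0.05 DESeq2 gave 0, where 2572 of all genes were positive and 2548 negative. Limma-voom gave 1, where 3906 were positive and 2891 negative. At an unadjusted p below 0.05 edgeR gave 3 genes, where 4056 of all genes were positive and 2552 negative. Those 3 were Cd3g at 1.52 ± 0.66 (SE; edgeR adjusted p = 0.117), Nkg7 at 1.35 ± 0.58 (SE; edgeR adjusted p = 0.114) and Blk at -1.70 ± 0.77 (SE; edgeR adjusted p = 0.133). Without WAT_5C replicate 1, 5 of the 36 genes passed with a positive difference, a share just under the 15.6% of all genes that did. They were Cd3g at 1.78 (adjusted p = 0.00394), Nkg7 at 1.60 (adjusted p = 0.00612), Cd4 at 1.14 (adjusted p = 0.0199), Lck at 1.09 (adjusted p = 0.0284) and Zap70 at 1.11 (adjusted p = 0.0339), all by edgeR. In the BAT_5C libraries Cd3g had 5 to 8 counts, Zap70 3 to 7, Nkg7 4 to 19, Lck 11 to 28 and Cd4 27 to 58. A positive difference here means that the gene fell less, or not at all, in white fat than in brown fat.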

How the data were processed

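The authors deposited 1 table of raw read counts per Ensembl gene identifier for the 16 libraries; Trim Galore and TopHat are named in the submitters' processing notes, while for the counting program, the genome build and the use of strand the sources used here say nothing. Of 46078 identifiers 45143 matched a symbol, and the 935 unmatched ones held 0.0403% to 0.1165% of counts per library. Groups came from the titles and the temperature at which mice were kept. Genes were filtered with filterByExpr (minimum count 10, minimum total 15), scaled by TMM and tested with the quasi-likelihood F-test of edgeR 4.0.16 in R 4.3.3, with Benjamini-Hochberg adjustment over all genes tested and a threshold of 0.05. Temperature was tested within each tissue, and the tissue and interaction contrasts came from 1 fit of all 16 libraries. CPM values use the TMM factors of all 16 libraries, and an SE is the absolute log2 fold change divided by the square root of F. DESeq2 1.42.0, limma-voom with quality weights (limma 3.58.1), other scalings, no filter, a replicate block and leaving out each library were the alternatives. The steps were tested on simulated data. Replicate numbers were not shown to pair libraries: same-numbered libraries had correlations of their deviations between -0.456 and 0.287. All 36 genes could be named; values in every library were set out for 18 of them and for genes against the common direction, and from 10 wider lists up to 4 genes with the smallest adjusted p per comparison. The genes and lists were chosen with earlier results of these data known.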

Additional observations from a re-analysis of the deposited data

Results flagged for a closer look

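Ighm had 72.9 CPM in BAT_30C replicate 4, far above the other 3 libraries of that group (19.9 to 26.0 CPM), and Ighm over Cd79a was 31.3 in the same library, against 8.41 to 9.51 in the other 3. Of 88 groups of 4 libraries examined in this way 2 had an outlying library, where chance gives about 1 in 20. Outside the 36, the interaction passed edgeR's test in 2 of 37 other T and NK cell genes and 2 of 30 other B and plasma cell genes. Of all 19481 genes tested, 20.8% passed. Dendritic cell genes gave 4 of 13, stroma and venule genes 3 of 19 and adipocyte genes 2 of 10. Among the first 2 lists, the temperature effect in WAT minus that in BAT was 2.66 on the log2 scale for Tbx21 (edgeR adjusted p = 0.000467) and 1.83 for Cd247 (adjusted p = 0.0211). It was 2.96 for Jchain, the joining chain of secreted antibody (adjusted p = 0.0356), and 0.92 for Xbp1 (adjusted p = 0.0144). Lymphatic endothelium gave 1 of 12, macrophage and mammary genes 1 of 14 each, and muscle and blood genes 0. Without WAT_5C replicate 1 the same 4 genes stood at 2.81 for Tbx21 (edgeR adjusted p = 5.19e-05), 2.06 for Cd247 (adjusted p = 0.00128), 2.96 for Jchain (adjusted p = 0.0313) and 0.78 for Xbp1 (adjusted p = 0.0194). In that fit 8 of 37 other T and NK cell genes passed as positive and 1 as negative. Of 30 other B and plasma cell genes 4 passed as positive, against 15.6% of all genes.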

How the results depend on the processing

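The count of 36 genes higher in WAT held under every alternative run at both temperatures. The count of 11 genes lower in BAT_5C lay between 7 and 13 when single libraries were left out (4233 to 4668 of all genes lower). It was 3 with the 4 BAT libraries whose labels matched, where 2707 of all 16535 genes were lower. With groups from the source name it was 0, and 0 of all 16213 genes passed in either direction. Under the other alternatives it lay between 9 and 13, where 4567 to 8828 of all genes were lower. For WAT_5C against WAT_30C the count of 0 became 14 with limma-voom, where 879 of all 18975 genes were lower. It lay between 0 and 1 with single libraries left out. Without WAT_5C replicate 1 it became 17 with DESeq2 (973 of all 19320 genes lower) and 17 with limma-voom (721 lower). It was then 1 in 1 fit of both tissues (218 of 19849 lower), and lay between 0 and 1 with further libraries left out. For the interaction the count of 0 became 1 with limma-voom, a positive difference, where 3906 of all 19481 genes were positive. It lay between 0 and 5 with single libraries left out, and the directions differed. All 5 were positive without WAT_5C replicate 1 (3101 of all 19849 genes positive), and 1 was positive without BAT_5C replicate 3 (2045 of 19892). Without BAT_30C replicate 4 the 1 gene was negative (1377 of 19956 negative). With the replicate number as a block (replicate block) the counts were 10 in BAT, 0 in WAT with and without replicate 1, and 36 for each tissue contrast. For the interaction the block gave 2 genes, both negative, where 1395 of all 19481 genes were negative. Some log2 differences changed sign, none of them past the threshold on either side. In BAT these were, with the matching labels, Cd2 at 0.36, Cd22 at 0.036, Cr2 at 0.11, Fcer2a at 0.32 and Cxcl13 at -0.20; with library totals, Ighm at -0.10, Ms4a1 at -0.37, Bank1 at -0.18 and Pax5 at -0.35; with limma-voom, Ms4a1 at -0.10, Pax5 at -0.18 and Cxcl13 at -0.034; and with the replicate block, Ms4a1 at -0.12 and Pax5 at -0.17. With single BAT libraries left out, Gzmb lay between -0.74 and 0.12, Cd79b between -0.60 and 0.30, Ms4a1 between -0.33 and 0.20, Fcer2a between -0.72 and 0.13, Bank1 between -0.021 and 0.42 and Pax5 between -0.60 and 0.28. In WAT, Gzmb was -0.22 with library totals and -0.043 with the replicate block, and lay between -0.32 and 0.18 with single libraries left out. Without WAT_5C replicate 1, Gzmb lay between -0.19 and 0.33, Ighm between -0.19 and 0.035 and Ms4a1 between -0.33 and 0.012 with further libraries left out. The causes were not tested. Scaling by library totals alone moved the median of all genes by -0.38 in BAT, -0.25 in WAT, -0.14 in WAT without replicate 1, 0.85 at 30 °C and 0.93 at 5 °C. All genes then split into 2324 higher and 8828 lower in BAT_5C (4741 and 4906 with TMM), 77 and 9 in WAT_5C (12 and 0), 227 and 88 without replicate 1 (355 and 53), 12873 and 2505 in WAT_30C over BAT_30C (6884 and 6712), 13879 and 2119 in WAT_5C over BAT_5C (7897 and 6201) and 2609 and 1079 for the interaction (2431 and 1624; 2056 and 2099 with RLE size factors). Low counts limit the brown fat values: 20 of the 33 genes tested there had a library under 10 counts.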
